A study of Arabidopsis thaliana with 6 samples.

Results

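Alpha-expansins are small secreted proteins of the plant cell wall. They loosen the contacts between cellulose microfibrils and the other wall polymers without cutting them, they act best when the wall is acidified, and the wall then yields to turgor so that the cell enlarges. Arabidopsis carries a family of such genes, numbered EXPA, and the ones described here are the 10 listed as those of growing tissue: EXPA1, EXPA3, EXPA4, EXPA5, EXPA6, EXPA8, EXPA9, EXPA10, EXPA11 and EXPA15. They were picked by locus identifier, with earlier results of these data known, and all 10 are among the 27416 genes of the deposited table. Whole seedlings were measured, so the table does not show in which organ or cell type a transcript was made, and fewer cells of a type cannot be told apart from less RNA per cell.

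RNA was sequenced from 3 libraries of wild-type Arabidopsis thaliana seedlings treated with CLE9 at 200 nM and 3 libraries of wild-type seedlings that received distilled water (ddH2O), all 7 days old. CLE9 is a short secreted signalling peptide of the CLE family, whose members bind leucine-rich repeat receptor kinases. The time of exposure and the cultures behind each library are not given in the sources used here. Every p-value below therefore rests on scatter between libraries, and that scatter may be technical. It comes from 3 libraries per group, or fewer where libraries are left out. Where the replicate number is a block, it is the scatter left after that number. The test used, limma, also draws the scatter of each gene toward that of genes of similar level. Markers of several seedling tissues were detected. All 6 green tissue markers averaged 1 FPKM or more, the filter used below. So did 5 of 7 root markers, 6 of 6 root hair markers and 5 of 6 guard cell markers. The root markers PLT1 and PLT2 and the guard cell marker GORK did not. Of all 27416 genes 17812 averaged as much, so these counts alone do not establish the label.

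Values are FPKM, fragments per kilobase of transcript and per M (mega) mapped fragments, so levels of different genes are set side by side per length. Depth, estimated from the lowest values, was between 20.7 and 27.8 M fragments in the CLE9 libraries and between 24.0 and 32.1 M fragments in the water libraries. Between 16575 and 17874 genes reached 1 FPKM in a library. At that depth the lowest library of a member held about 16 fragments over the coding sequence in EXPA15 and about 250 in EXPA3, and the highest held about 69 in EXPA15 and about 893 in EXPA1. The CLE9 and water libraries numbered 2 differed from the other 4. In each group the touch and wounding genes were higher in replicate 2 than in the mean of the other libraries, by a median of 3.07 in CLE9 and 3.89 in water on the log2(FPKM + 1) scale, and the early immune genes by 2.51 in CLE9 and 4.35 in water. The change of each member is therefore given with and without both replicate 2 libraries.

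The 10 genes lie on 4 of the 5 chromosomes, 5 of them on chromosome 2, and no other gene of the table overlaps any of them. Their RefSeq models encode 252 to 275 residues in 3 coding exons, or 4 in EXPA1 and EXPA15, and each protein holds the sequence HFD, a motif of the expansin catalytic-like domain, once. Protein identity over the 45 pairs ran between 56.0% and 81.9% with a median of 67.1%, and coding-sequence identity between 63.9% and 79.0%. EXPA1, EXPA10 and EXPA15 shared 80.6% to 81.9% with each other, and EXPA3, EXPA4, EXPA6 and EXPA9 shared 75.1% to 80.9%. EXPA5 reached 70.4% with EXPA15, EXPA8 reached 70.0% with EXPA10, and EXPA11 was the most distant, at 61.5% or less with every other member. The rules by which the authors counted reads that match more than 1 of these genes are not given in the sources used here.

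Upstream sequences of 4 members are shown because the values below return to them: EXPA1 and EXPA10, the pair closest in protein sequence, and EXPA8 and EXPA11, the members with the lowest fitted changes. Each is the 250 bases before the start of the gene in RefSeq, build TAIR10.1, read 5′ to 3′ on the strand of the gene, at chr1:26141476-26141725 (plus strand) for EXPA1, chr1:9259182-9259431 (plus strand) for EXPA10, chr2:16950706-16950955 (minus strand) for EXPA8 and chr1:6999840-7000089 (minus strand) for EXPA11. Capitals mark the letters searched for: CATGTG, an E-box bound by PIF factors, CGTGTG, a brassinosteroid-response element, TGTCTC, an auxin-response element, and TTGACC and TTGACT, forms of the W-box of WRKY factors, each on either strand.
EXPA1: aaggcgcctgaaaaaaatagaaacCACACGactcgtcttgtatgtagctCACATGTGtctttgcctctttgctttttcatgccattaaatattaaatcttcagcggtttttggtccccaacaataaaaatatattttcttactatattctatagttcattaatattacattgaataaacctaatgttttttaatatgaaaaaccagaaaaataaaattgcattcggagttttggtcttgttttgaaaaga
EXPA10: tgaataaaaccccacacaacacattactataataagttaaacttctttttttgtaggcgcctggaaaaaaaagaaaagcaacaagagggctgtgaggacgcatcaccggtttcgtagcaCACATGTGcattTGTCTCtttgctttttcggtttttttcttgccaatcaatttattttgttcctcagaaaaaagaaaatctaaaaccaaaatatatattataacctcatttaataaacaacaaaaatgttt
EXPA8: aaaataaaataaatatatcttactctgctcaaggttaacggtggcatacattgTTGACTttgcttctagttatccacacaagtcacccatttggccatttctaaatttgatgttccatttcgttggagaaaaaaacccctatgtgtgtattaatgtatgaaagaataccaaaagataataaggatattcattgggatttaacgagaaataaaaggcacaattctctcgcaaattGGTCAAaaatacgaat
EXPA11: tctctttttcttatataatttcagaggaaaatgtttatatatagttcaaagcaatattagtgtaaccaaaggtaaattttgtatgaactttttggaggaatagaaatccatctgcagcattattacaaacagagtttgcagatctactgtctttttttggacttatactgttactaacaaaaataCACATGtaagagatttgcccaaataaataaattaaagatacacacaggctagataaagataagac
The upstream sequences of EXPA1 and EXPA10 share the octamer CACATGTG, in which CATGTG is read on both strands and overlaps itself, and shortly after it both hold the 14 bases ctctttgctttttc, which in EXPA10 overlap TGTCTC. Those 14 bases were the longest run shared by any pair of members. The octamer, which was looked for after these sequences had been seen, occurs in 122 of 27443 windows of the same kind (250 bases before to 50 after the start), or 0.445%. Over that window CATGTG was found in 3 members (EXPA1, EXPA10 and EXPA11) and in 12.9% of all genes, TGTCTC in 4 members (EXPA5, EXPA6, EXPA8 and EXPA10) and in 14.2% of all genes, and TTGACC in 4 members (EXPA4, EXPA8, EXPA9 and EXPA10) and in 14.2%. CGTGTG was found in EXPA1 and EXPA6, against 6.5% of all genes, and TTGACT in EXPA8, against 21.8%. Neither the G-box CACGTG (7.7% of all genes) nor CGTGCG (2.0%) was found in any member's window, and TATAAA on the gene's strand was found in EXPA4, EXPA5 and EXPA15, against 37.2%. These are matches of letters and not sites of binding.

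The level of the 10 genes together did not separate the groups. Their summed FPKM was 125.2, 83.41 and 145.6 in CLE9 replicates 1, 2 and 3, against 175.6, 84.29 and 162.7 in water replicates 1, 2 and 3. Both replicate 2 libraries were low and nearly equal, while the other 2 CLE9 libraries lay below the other 2 water libraries. As means the sums were 118 ± 31.7 FPKM with CLE9 and 141 ± 49.4 FPKM with water (SD, n = 3 each). The members took between 0.0121% and 0.0209% of all FPKM in the CLE9 libraries and between 0.0117% and 0.0245% in the water libraries.

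With CLE9 the order of the mean levels was EXPA4, EXPA1, EXPA3, EXPA6, EXPA11, EXPA9, EXPA8, EXPA10, EXPA5 and EXPA15, between 25.24 and 1.784 FPKM. Neighbours in that order overlapped in their ranges except EXPA1 with EXPA3, EXPA8 with EXPA10, EXPA10 with EXPA5 and EXPA5 with EXPA15. With water the order was EXPA1, EXPA4, EXPA3, EXPA6, EXPA11, EXPA8, EXPA9, EXPA10, EXPA5 and EXPA15, between 25.34 and 2.055 FPKM, and every neighbouring pair overlapped. The same 3 genes, EXPA10, EXPA5 and EXPA15, were thus the lowest in both groups, and the same 5 the highest.

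**Figure D1:**
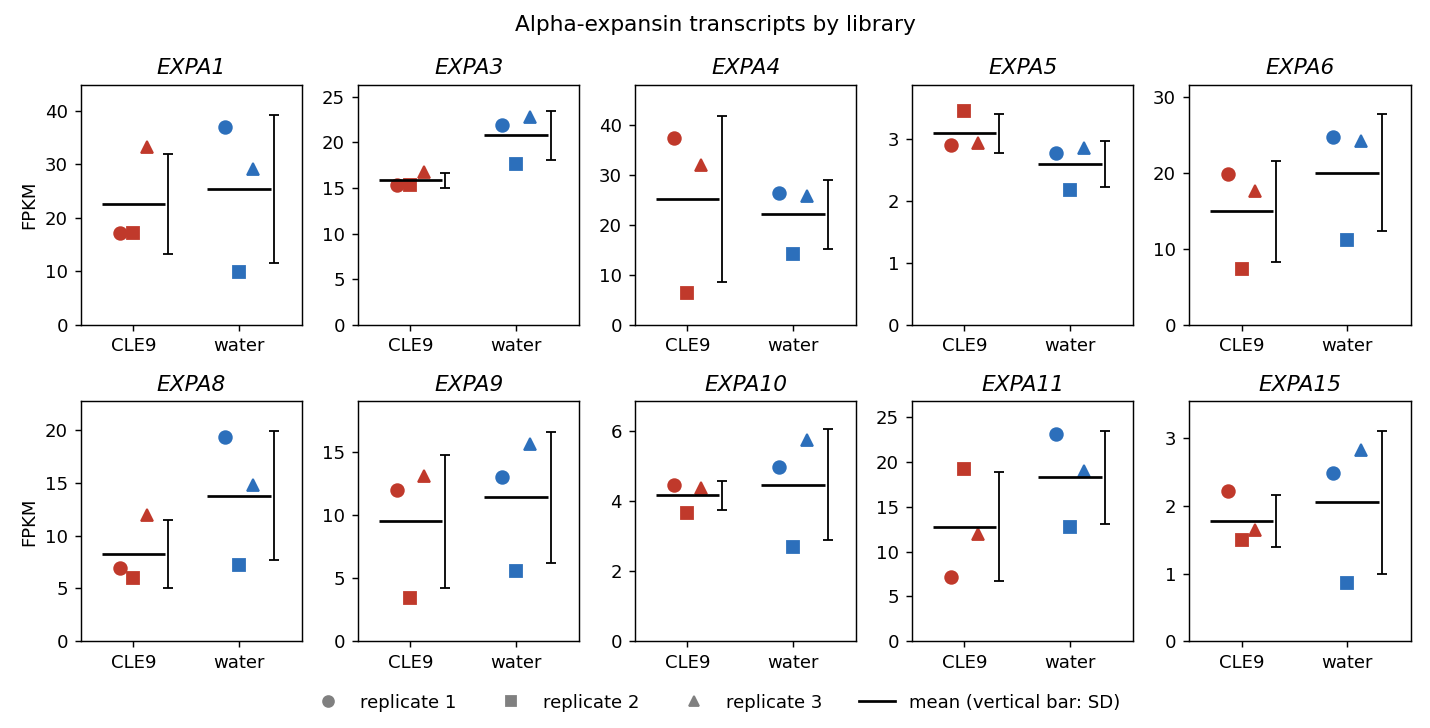
FPKM of each of the 10 alpha-expansins (vertical axis, from 0, its own scale in each panel) in the CLE9 libraries (red, left) and the water libraries (blue, right). Marker shapes give the replicate number, horizontal lines the mean and vertical bars the SD of 3 libraries. In every panel the blue square, water replicate 2, is the lowest water library; EXPA3 and EXPA5 are the panels in which the groups do not overlap.

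None of the 10 genes passed the test between CLE9 and water with all 6 libraries at equal weight. The test was limma on log2(FPKM + 1) over the 17812 genes that averaged at least 1 FPKM, all 10 members among them, with Benjamini-Hochberg adjustment over all of them and calls at an adjusted p under 0.05. It called 0 members in either direction, where the shares of all genes called were 0% higher and 0.00561% lower (1 gene). With the replicate number as a block it again called 0 members, against 1.75% of all genes higher and 0.247% lower. At an unadjusted p under 0.05 no member passed without the block and EXPA6 passed with it (lower), where all genes gave 1039 higher and 547 lower without the block and 1992 higher and 1683 lower with it. The median fitted change of the members was -0.20 on the log2(FPKM + 1) scale, with a spread of 0.39 between libraries, and the median of all genes was -0.05. In 9 members, all but EXPA5, the fitted change was below 0, against 10222 of 17812 genes.

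Leaving out both replicate 2 libraries put 1 member past the threshold, EXPA11, lower with CLE9. In that fit 2.95% of all genes were called lower and 8.41% higher, and no member was called higher. At an unadjusted p under 0.05 that fit had EXPA3, EXPA6, EXPA8 and EXPA11 lower and EXPA4 higher, where all genes gave 2092 lower and 2579 higher. The members' median change was -0.35 there and 8 of 10 were below 0, against 10180 of all genes. When limma weighted each library by its scatter (array weights), 3 members were called lower, EXPA3, EXPA8 and EXPA11, against 12.7% of all genes called lower.

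EXPA1 (AT1G69530, chr1:26141836-26143500, plus strand), which acts in stomatal opening and in the swelling of the cells that found lateral roots, was at 17.05, 17.18 and 33.25 FPKM in CLE9 replicates 1, 2 and 3, against 36.95, 9.935 and 29.13 FPKM in water replicates 1, 2 and 3. The groups overlapped fully, since water replicate 2 was the lowest library of all and water replicate 1 the highest. Its mean was 22.49 ± 9.31 FPKM with CLE9 and 25.34 ± 13.9 FPKM with water (SD, n = 3 each), and its log2 change was -0.05 ± 0.53 (SE; limma adjusted p = 0.987). The differences within replicates 1, 2 and 3 were -1.07, 0.73 and 0.18, so only replicate 1 was lower with CLE9. Without both replicate 2 libraries the change was -0.44 ± 0.32 (limma adjusted p = 0.435).

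EXPA10 (AT1G26770, chr1:9259605-9261313, plus strand), known for its part in leaf growth, was at 4.446, 3.67 and 4.36 FPKM with CLE9, against 4.967, 2.702 and 5.742 FPKM with water. The CLE9 libraries lay close together and inside the range of the water libraries. Its mean was 4.159 ± 0.425 FPKM with CLE9 and 4.47 ± 1.58 FPKM with water. The log2 change was -0.04 ± 0.26 (limma adjusted p = 0.978), and -0.23 ± 0.14 (limma adjusted p = 0.350) with replicate 2 left out of both groups. EXPA1 and EXPA10 share the octamer shown above. Over the 6 libraries the root mean square difference of their centred log2 values was 0.43, against a median of 0.50 over the 45 pairs of members. That measure counts the size of shifts as well as their direction. Water replicate 2 was the lowest library of both genes, with a shift from the other water libraries of -1.63 in EXPA1 and -0.78 in EXPA10.

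EXPA15 (AT2G03090, chr2:916854-918643, minus strand), the lowest member, was at 2.22, 1.492 and 1.642 FPKM with CLE9, against 2.48, 0.8545 and 2.83 FPKM with water. As in EXPA10, the CLE9 libraries sat within the water range, with water replicate 2 the lowest library. It averaged 1.784 ± 0.384 FPKM with CLE9 and 2.055 ± 1.05 FPKM with water. Its log2 change was -0.07 ± 0.32 (limma adjusted p = 0.967) over all libraries and -0.32 ± 0.16 (limma adjusted p = 0.280) without replicate 2. Over the 6 libraries its profile was the nearest of any to another member's, at 0.10 from EXPA10.

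EXPA5 (AT3G29030, chr3:11011308-11013358, minus strand), which contributes to growth driven by brassinosteroids, was at 2.893, 3.449 and 2.922 FPKM with CLE9, against 2.765, 2.171 and 2.854 FPKM with water. Every CLE9 library was above every water library, the 1 such member of 10, where 8.51% of all genes had that order. The gap between the groups was small, 2.893 FPKM in the lowest CLE9 library and 2.854 FPKM in the highest water library. Its mean was 3.088 ± 0.313 FPKM with CLE9 and 2.597 ± 0.371 FPKM with water, a ratio of 1.19, and the log2 change of 0.19 ± 0.17 did not pass (limma adjusted p = 0.794). Without both replicate 2 libraries the change was 0.04 ± 0.13 (limma adjusted p = 0.891).

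EXPA3 (AT2G37640, chr2:15787705-15789853, minus strand) was at 15.37, 15.33 and 16.8 FPKM with CLE9, against 21.86, 17.67 and 22.78 FPKM with water. Every CLE9 library was below every water library, again the 1 such member of 10, where 7.47% of all genes had that order. Relative to its mean it was also the steadiest member with CLE9, at 15.83 ± 0.835 FPKM, against 20.77 ± 2.73 FPKM with water, a ratio of 0.762. The log2 change was -0.36 ± 0.16 (limma adjusted p = 0.600), and the adjusted p was 0.254 with the replicate block. Without both replicate 2 libraries the change was -0.45 ± 0.12 (limma adjusted p = 0.0816). Weighting the libraries gave an adjusted p of 0.0123.

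EXPA4 (AT2G39700, chr2:16543832-16545584, minus strand) had the highest mean of the members with CLE9 and the widest scatter. It was at 37.39, 6.297 and 32.02 FPKM with CLE9, against 26.36, 14.2 and 25.79 FPKM with water. CLE9 replicate 2 was the lowest library and the other 2 CLE9 libraries were the highest. The mean of EXPA4 was 25.24 ± 16.6 FPKM with CLE9 and 22.12 ± 6.87 FPKM with water. The log2 change was -0.09 ± 0.67 (limma adjusted p = 0.982) over all 6 libraries and 0.40 ± 0.13 (limma adjusted p = 0.135) without both replicate 2 libraries. The change was also above 0 without CLE9 replicate 2 (0.67), water replicate 1 (0.057) or water replicate 3 (0.042) alone, and the ratio of the mean FPKM was 1.14. The nearest copy of EXPA4 outside the members was EXPA16, at 84.8% of residues and 81.4% of coding bases.

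EXPA6 (AT2G28950, chr2:12431341-12433595, minus strand) was at 19.79, 7.396 and 17.67 FPKM with CLE9, against 24.72, 11.17 and 24.18 FPKM with water. Within each replicate number the CLE9 library was lower, with log2 differences of -0.31, -0.54 and -0.43. EXPA6 averaged 14.95 ± 6.63 FPKM with CLE9 and 20.02 ± 7.67 FPKM with water. Over all libraries the log2 change was -0.42 ± 0.46 (limma adjusted p = 0.834). With the replicate block the SE was 0.14 and the change did not pass either (limma adjusted p = 0.193). It was -0.37 ± 0.13 (limma adjusted p = 0.137) without both replicate 2 libraries.

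EXPA9 (AT5G02260, chr5:463158-465246, plus strand) ran like EXPA6, at 11.99, 3.438 and 13.07 FPKM with CLE9, against 13.02, 5.564 and 15.59 FPKM with water. Both replicate 2 libraries were the lowest of their group, and the means were 9.5 ± 5.28 FPKM with CLE9 and 11.39 ± 5.21 FPKM with water. The centred profiles of EXPA6 and EXPA9 differed by 0.19, the second smallest distance among the members. The log2 change of EXPA9 was -0.30 ± 0.56 (limma adjusted p = 0.918), and it was -0.17 ± 0.14 (limma adjusted p = 0.502) without both replicate 2 libraries.

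EXPA8 (AT2G40610, chr2:16948863-16950557, minus strand) had the lowest fitted change of the members. It was at 6.914, 5.952 and 11.92 FPKM with CLE9, against 19.35, 7.25 and 14.78 FPKM with water. Water replicate 2 lay between the CLE9 libraries, and the other 2 water libraries were above all CLE9 libraries. Its mean was 8.263 ± 3.21 FPKM with CLE9 and 13.8 ± 6.11 FPKM with water, a ratio of 0.599, and the log2 change was -0.63 ± 0.41 (limma adjusted p = 0.725). The adjusted p was 0.261 with the replicate block and 0.0411 with array weights, and without both replicate 2 libraries the change was -0.83 ± 0.27 (limma adjusted p = 0.119).

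EXPA11 (AT1G20190, chr1:6998489-6999817, minus strand), the most distant member in sequence, was 1 of 2 members, with EXPA5, whose replicate 2 libraries lay at opposite ends of their groups. It was at 7.152, 19.2 and 11.97 FPKM with CLE9, against 23.08, 12.78 and 19.02 FPKM with water. CLE9 replicate 2 was the highest CLE9 library and water replicate 2 the lowest water library, so the differences within replicates were -1.56, 0.55 and -0.63. Its mean was 12.77 ± 6.06 FPKM with CLE9 and 18.29 ± 5.19 FPKM with water. The log2 change was -0.55 ± 0.39 (limma adjusted p = 0.745) over all libraries. Without both replicate 2 libraries EXPA11 fell by 1.09 ± 0.25 (limma adjusted p = 0.0457), from 2 libraries a group, and with array weights the adjusted p was 0.0077.

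**Figure D2:**
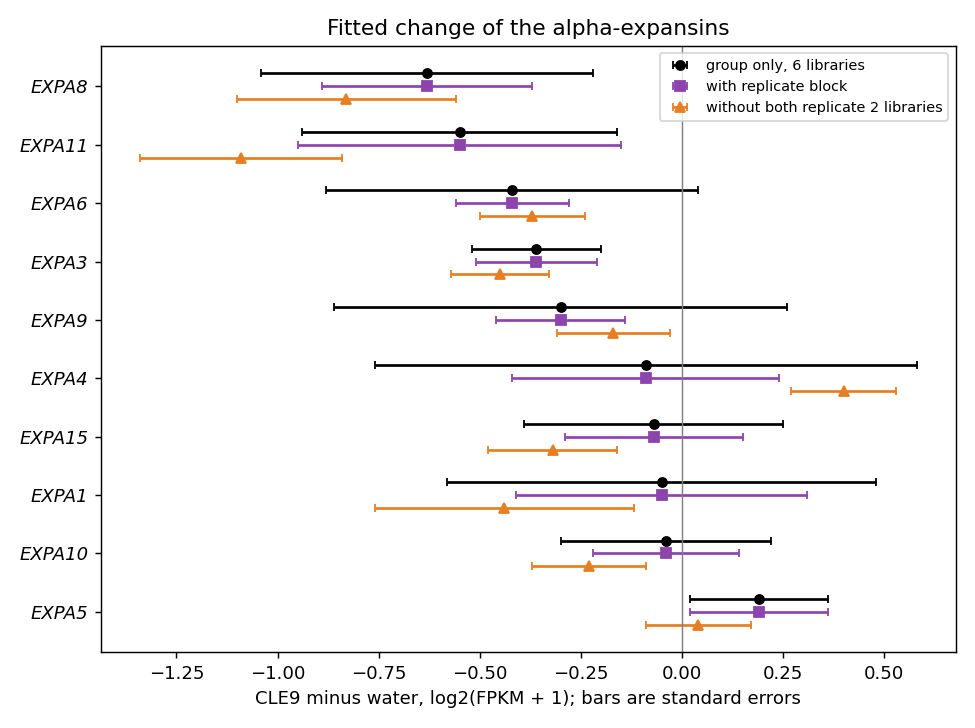
Fitted change of each alpha-expansin, CLE9 minus water on the log2(FPKM + 1) scale (horizontal axis), in limma with group only (black), with the replicate number as a block (purple) and without both replicate 2 libraries (orange). Bars are standard errors. The bars of EXPA4 lie on both sides of 0, at -0.09 with all libraries and 0.40 without replicate 2, and EXPA11 lies at -0.55 and -1.09.

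Within replicate numbers, 4 members were lower with CLE9 in all 3, EXPA3, EXPA6, EXPA8 and EXPA9, where 26.0% of all genes were, and 1 was higher in all 3, EXPA5, where 19.8% of all genes were. The median difference of the members was -0.22 in replicate 1, 0.07 in replicate 2 and -0.31 in replicate 3. In replicate 2 the members divided evenly, with EXPA1, EXPA5, EXPA10, EXPA11 and EXPA15 higher with CLE9, by 0.73, 0.49, 0.33, 0.55 and 0.43, and the other 5 lower.

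These genes also differed between water replicate 2 and the other water libraries. In CLE9 their count and median shift lay nearer to those of all genes. CLE9 replicate 2 was below both other CLE9 libraries in 7 of 10 members, where 57.4% of all genes were, and water replicate 2 was below both other water libraries in 10 of 10 members, where 59.6% of all genes were. The median shift of replicate 2 from the mean of its group's other libraries was -0.34 in CLE9 and -0.91 in water, against -0.23 and -0.19 over all genes. Single members shifted unlike amounts in the 2 groups. EXPA4 shifted by -2.29 in CLE9 and -0.83 in water, EXPA1 by -0.45 in CLE9 and -1.63 in water, and EXPA11 by 0.97 in CLE9 and -0.67 in water, while EXPA6 shifted by -1.23 in CLE9 and -1.06 in water.

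Tissue markers moved with replicate 2 as well. The root hair markers shifted by a median of -1.92 in CLE9 and -1.76 in water, and their summed FPKM was 39.15, 4.48 and 131.8 in CLE9 replicates 1, 2 and 3 and 144.3, 22.64 and 94.32 in water replicates 1, 2 and 3. All 6 were lowest in replicate 2 of both groups, an order that 8161 of all 17812 tested genes had. RHD6 and RSL4, regulators of root hair formation, were listed at 0 in CLE9 replicate 2. The root markers shifted by a median of -1.15 in CLE9 and -0.48 in water. Of the 5 tested, 3 (WER, CASP1 and MYB36) were lowest in replicate 2 of both groups, not far from the share of all genes with that order. SCR shifted by -0.13 in CLE9 and 0.14 in water and SHR by 0.08 in CLE9 and -0.48 in water. The root markers had sums over all 7 of 79.81, 40.35 and 90.5 FPKM in CLE9 and 83.65, 49.54 and 73.33 FPKM in water, and PLT2 was listed at 0 in CLE9 replicate 2. The green tissue markers shifted by -2.24 in CLE9 and -0.33 in water, with sums of 43760, 17110 and 32830 FPKM in CLE9 and 40190, 35690 and 40340 FPKM in water. The guard cell markers went both ways, with medians of 0.13 in CLE9 and -0.05 in water; FAMA shifted by 0.66 and SLAC1 by -0.27 in CLE9, and HT1 by -0.58 in water. The part of tissue makeup or handling in the expansin values was not tested.

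**Figure D3:**
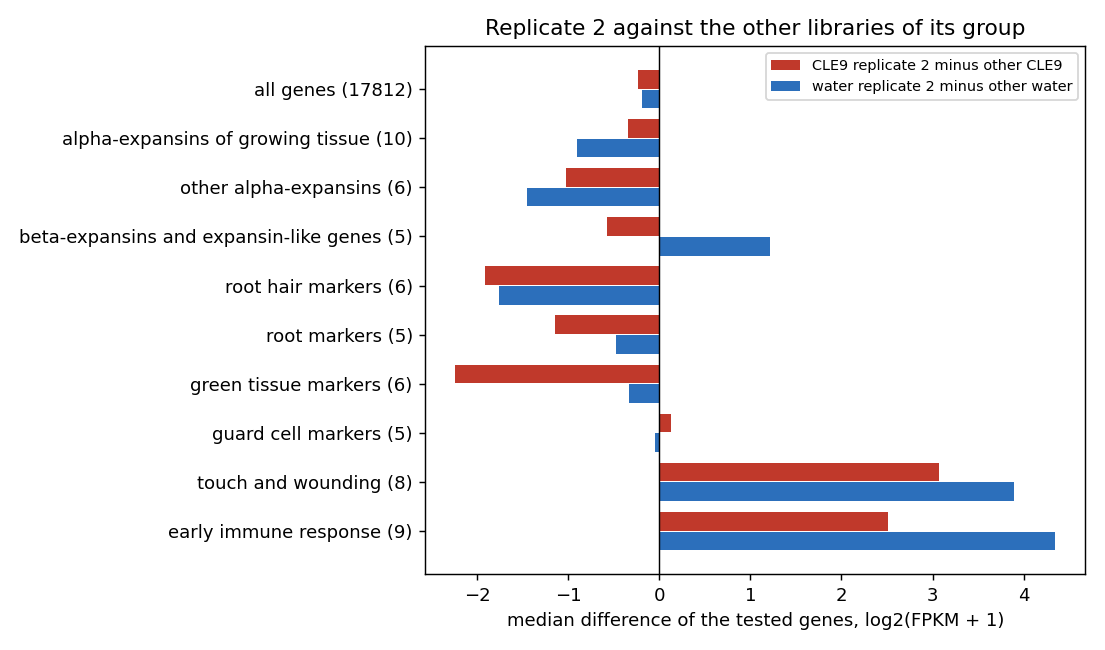
Median difference between replicate 2 and the mean of the other libraries of its group, in log2(FPKM + 1) (horizontal axis), for CLE9 (red, upper bar) and water (blue, lower bar). The number of tested genes is in parentheses. The alpha-expansin bars reach -0.34 and -0.91, the root hair bars -1.92 and -1.76, and the touch and wounding bars 3.07 and 3.89.

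Profiles over the 6 libraries spread widely among the members. The root mean square difference between 2 centred profiles ran between 0.10 (EXPA10 and EXPA15) and 1.14 (EXPA4 and EXPA11) on the log2 scale. EXPA10 and EXPA15 were also close in protein sequence, at 80.6%, but EXPA3 and EXPA4, at 79.0%, differed by 0.78 in profile. EXPA3 was at a smaller distance from EXPA10, 0.23, with which it shares 65.3% of residues. The distance counts the size of shifts as well as their direction, so genes that shift little come out near each other. EXPA3 and EXPA5 were at 0.29, though their groups separated in opposite directions. The 5 other tested genes nearest to the mean profile of the members were AT1G02380, AT2G39300, AT5G60390, AT1G47900 and AT1G07970, at distances of 0.030 to 0.053 over 6 libraries. AT5G60390, annotated as a GTP-binding elongation factor Tu family protein, was at 372.9, 256.2 and 432.8 FPKM with CLE9, against 492.6, 257.2 and 506.5 FPKM with water. The mean profile of the members dipped in both replicate 2 libraries, to -0.48 in CLE9 and -0.47 in water. AT5G60390 was picked for its nearness to that profile, so its like dip is no separate evidence.

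The rest of the expansin superfamily was looked at for comparison. Of 16 other alpha-expansins, 15 were in the table, 6 were tested and 0 were called with group only, with the replicate block or without both replicate 2 libraries. At an unadjusted p under 0.05 these fits gave 0, 2 and 2 of the 6, all lower. Of all 17812 genes they gave 547, 1683 and 2092 lower. EXPA22, EXPA23, EXPA24, EXPA25 and EXPA26 were listed at 0 in all 6 libraries. EXPA7 and EXPA18, which act in root hair initiation, were low in replicate 2, where EXPA7 shifted by -2.72 in CLE9 and -2.07 in water and EXPA18 by -2.37 in CLE9 and -2.45 in water. EXPA7 (AT1G12560) was at 4.506, 0.1462 and 9.3 FPKM with CLE9, against 9.786, 1.724 and 11.21 FPKM with water, a log2 change of -0.82 ± 0.96 (limma adjusted p = 0.847, and 0.137 with the replicate block). EXPA18 (AT1G62980) was at 4.717, 0.337 and 7.378 FPKM with CLE9, against 10.53, 1.095 and 10.42 FPKM with water (log2 change -0.70 ± 0.94, limma adjusted p = 0.873, and 0.103 with the replicate block). Both genes were lower with CLE9 within each of the 3 replicate numbers. They shared the low replicate 2 values of the root hair markers given above. Within replicates 1, 2 and 3 those markers had median differences of -1.0, -0.51 and 0.3. The differences of EXPA7 were -0.97, -1.25 and -0.25, and those of EXPA18 were -1.01, -0.65 and -0.45. Whether root hair content plays a part in these values was not tested. The median change of the 6 tested genes was -0.27, and EXPA20 (0.30 ± 0.35, limma adjusted p = 0.846) and EXPA16 (0.02 ± 0.30, limma adjusted p = 0.991) were the 2 above 0. EXPA13 (AT3G03220) was at 5.508, 4.573 and 5.738 FPKM with CLE9, against 6.954, 4.926 and 6.338 FPKM with water (log2 change -0.17 ± 0.18, limma adjusted p = 0.833). EXPA14 (AT5G56320) was at 4.069, 1.57 and 5.925 FPKM with CLE9, against 7.591, 1.058 and 10.26 FPKM with water (log2 change -0.38 ± 0.72, limma adjusted p = 0.918). The groups overlapped in both.

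Of 10 beta-expansins and expansin-like genes in the table, 5 were tested and none was called with group only or with the replicate block. At an unadjusted p under 0.05 those fits gave 0 and 3, the 3 lower. Of all 17812 genes they gave 547 and 1683 lower. Unlike the alpha-expansins, the EXLA genes were high in water replicate 2. EXLA1 (AT3G45970) was at 18.35, 126.9 and 25.51 FPKM with CLE9, against 43.19, 232.5 and 46.07 FPKM with water. Within the replicate numbers the log2 differences of EXLA1 were -1.19, -0.87 and -0.83, and the adjusted p in limma was 0.813 with group only, 0.0627 with the block and 0.0231 without both replicate 2 libraries. EXLA2 (AT4G38400) was at 6.304, 13.58 and 6.334 FPKM with CLE9, against 10.8, 26.34 and 10.75 FPKM with water, with adjusted p of 0.710, 0.0653 and 0.0219 in the same limma fits. EXLA3 (AT3G45960) went the other way outside replicate 2, at 6.457, 4.033 and 6.585 FPKM with CLE9, against 0.8742, 10.69 and 0.828 FPKM with water, and without both replicate 2 libraries it rose by 2.02 ± 0.13 (limma adjusted p = 0.000866). EXPB3 (AT4G28250) was at 3.566, 0.2315 and 3.704 FPKM with CLE9, against 5.455, 1.057 and 4.865 FPKM with water (log2 change -0.52 ± 0.69, limma adjusted p = 0.871). EXLB1 (AT4G17030) was at 6.753, 2.706 and 16.4 FPKM with CLE9, against 9.064, 8.544 and 17.3 FPKM with water (log2 change -0.60 ± 0.59, limma adjusted p = 0.812). Neither separated the groups, and EXPB4, EXPB5 and EXPB6 were listed at 0 in all 6 libraries.

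**Figure D4:**
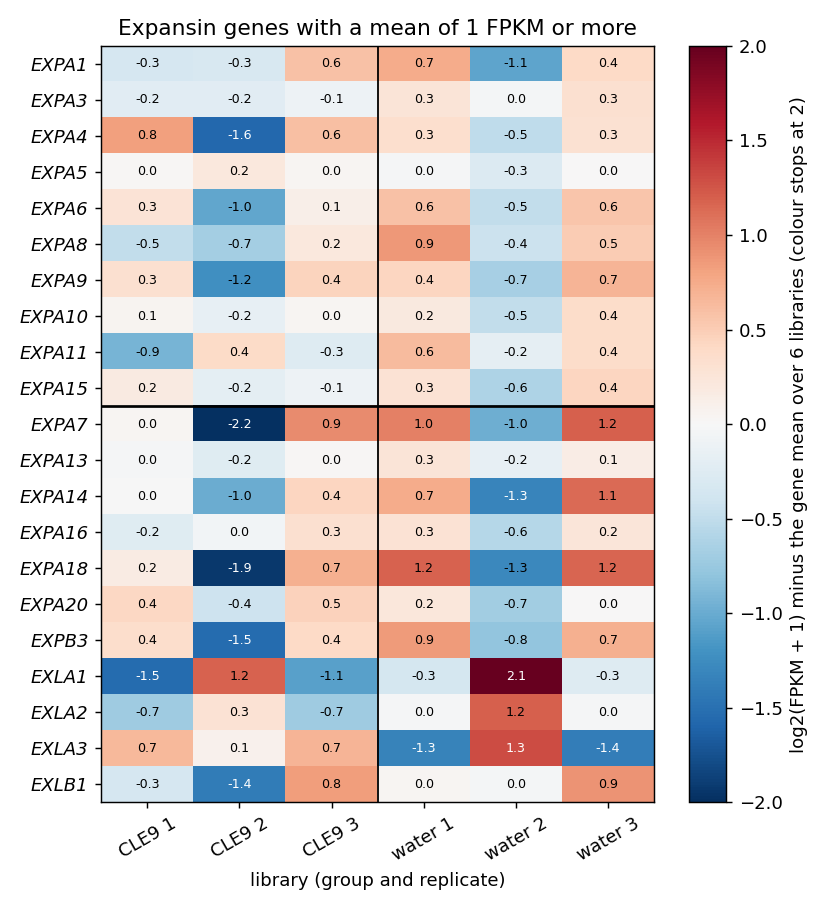
Centred level, log2(FPKM + 1) minus the mean of the gene over the 6 libraries, of the 21 expansin-family genes that averaged at least 1 FPKM (rows; the 10 alpha-expansins of growing tissue above the line) in each library (columns; CLE9 left, water right). Red is above and blue below the mean of the gene, and the number in each cell is the value. Most alpha-expansins are blue in both replicate 2 columns, and EXLA1 and EXLA2 are red there.

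Genes whose products set the wall pH or the growth programme were read from the same fits. Of 7 tested acid-growth genes 0 were called with group only and with the block. At an unadjusted p under 0.05, 1 was higher without the block, and 1 was higher and 2 lower with it. Of all 17812 genes, 1039 were higher and 547 lower at that p without the block, and 1992 and 1683 with it. AHA1, listed with AHA2, averaged 278.3 FPKM with CLE9 and 263.7 FPKM with water (log2 change 0.08 ± 0.23, limma adjusted p = 0.951). AHA2, a plasma membrane proton pump that acidifies the wall, was at 242.8, 449.7 and 253.5 FPKM with CLE9, against 138, 125.1 and 140.2 FPKM with water. All AHA2 values with CLE9 were above all those with water, an order that 8.51% of all genes had. The log2 change of AHA2, 1.17 ± 0.30, had an adjusted p in limma of 0.330 with group only, 0.110 with the block and 0.0151 without both replicate 2 libraries. SAUR24, of a family of small auxin-induced proteins that promote proton pumping, lay below water in every CLE9 library, at 2.82, 0.4623 and 2.164 FPKM with CLE9, against 4.233, 3.508 and 3.19 FPKM with water (log2 change -0.83 ± 0.38, limma adjusted p = 0.611). Of all genes, 7.47% had that order.

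Among 11 growth transcription factors 0 were called with group only and with the block. At an unadjusted p under 0.05, 1 was lower with group only, and 1 was higher and 2 lower with the block. Of all 17812 genes, 547 were lower at that p with group only, and 1992 higher and 1683 lower with the block. PIF4, a basic helix-loop-helix factor that promotes elongation and binds G-boxes and E-boxes, was at 28.28, 30.11 and 34.57 FPKM with CLE9, against 60.98, 44.04 and 49 FPKM with water. Every CLE9 library was below every water library (log2 change -0.70 ± 0.19), an order that 7.47% of all genes had. The adjusted p of PIF4 in limma was 0.363 with group only, 0.132 with the block and 0.0421 without both replicate 2 libraries. HBI1, another factor of that class, had a log2 change of -0.97 ± 0.52 (limma adjusted p = 0.677). Of 10 tested genes of primary wall synthesis 0 were called in any of the 3 fits, with a median change of -0.16. At an unadjusted p under 0.05 the fits gave 0, 0 and 3, the 3 lower and from the fit without replicate 2, in which 2092 of all 17812 genes were lower at that p. Every CLE9 library was below every water library in CESA2, a cellulose synthase subunit, at 17.72, 19.1 and 18.57 FPKM with CLE9, against 25.68, 19.21 and 25.85 FPKM with water (log2 change -0.33 ± 0.18, limma adjusted p = 0.677). The gap was small, 19.1 against 19.21 FPKM, and 7.47% of all genes had that order. The receptor kinases FER and THE1, which sense the state of the wall, were not called in any of the 3 fits.

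Calls between CLE9 and water in other genes depended on the fit. Of 9 early immune genes tested, a list chosen with earlier results of these data known, 0 were called with group only. At an unadjusted p under 0.05, 3 were higher in that fit, as were 1039 of all 17812 genes. With the block 5 were called higher (PROPEP2, PROPEP3, RBOHD, NHL10 and WRKY53), where 1.75% of all genes were. Without both replicate 2 libraries all 9 were called higher, where 8.41% of all genes were. PROPEP3, a precursor of a damage peptide, was at 14.08, 263.2 and 14.27 FPKM with CLE9, against 0.411, 27.26 and 0.3562 FPKM with water (log2 change 3.38, block SE 0.14, limma adjusted p = 0.00998 with the block). The touch and wounding genes gave 0 calls with group only and with the block, and 4 higher and 2 lower of 8 without both replicate 2 libraries. That fit called 8.41% of all genes higher and 2.95% lower.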

How the data were processed

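The authors deposited 1 table of FPKM, with a column for each library, per the file headers. Build TAIR10 and the tools DESeq2 1.16.1, featureCounts 1.5.0-p3, StringTie 1.3.3b, HISAT2 2.0.5 and CASAVA 1.8 are named, without roles, in the submitters' processing notes. The tool that gave FPKM and the use of strand are not given in the sources used here. RNA was extracted with TRIzol and libraries made with a NEBNext Ultra kit, per the labels.

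FPKM were analysed as log2(FPKM + 1), which understates changes of low genes. Genes that averaged at least 1 FPKM were fitted with limma 3.58.1 in R 4.3.3 (group only, empirical Bayes with a trend, two-sided, Benjamini-Hochberg). A single exact permutation test of 3 against 3 cannot go below p = 0.10, so none is given. Depth was estimated from single-exon genes whose low values fall on steps of 1 fragment (39.0% to 53.7% whole within 0.1, 5061 genes), so it is approximate, and whole reads were not recovered. The fits were also run on simulated data in which each gene's replicate shifts were the same in both groups. In the real libraries single members shifted unlike amounts in the groups, so that run does not check the calls given here.

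Replicate numbers are shared by both groups. Deviations of same-numbered libraries correlated across genes at 0.545, 0.743 and 0.583, all over 0.1, and same-numbered libraries were treated as pairs, although CLE9 replicate 1 correlated with water replicate 3 at 0.620 and CLE9 replicate 3 with water replicate 1 at 0.664.

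Members, lists (13 with 111 genes), tests and alternatives were chosen with earlier results of these data known. Named are all members, other expansins that averaged at least 1 FPKM, those listed at 0 throughout, and from each other list called genes or up to 4 with the smallest p. AHA1 and some tissue markers are named besides these. The alternatives were the block, a pseudocount of 0.1, no filter, median-ratio scaling, quantile normalization, array weights, and leaving out each library or both replicate 2 libraries. Gene coordinates are those of the table (TAIR10). Sequences came from RefSeq TAIR10.1, in which 5078 genes on all 5 chromosomes have the same start and end as in the table; protein identities are from global alignments (Biopython 1.88) of translated coding sequences.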

Additional observations from a re-analysis of the deposited data

How the results depend on the processing

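The count of called alpha-expansins was 0 in each direction in 11 of 13 alternatives; it was 3 lower with array weights and 1 lower without both replicate 2 libraries, and 0 with each library left out in turn. The median change of the members was -0.20 with the replicate block. Neither the block, in this balanced design, nor leaving out the filter can alter a fitted change, so they do not test its sign or size. When each library was left out the median lay between -0.53 and 0.015. Fitted changes turned above 0 in EXPA1 and EXPA10 with median-ratio scaling (0.0017 and 0.0041) and in EXPA4 with array weights (0.27) and without both replicate 2 libraries (0.40). With single libraries left out, EXPA1 lay between -0.59 and 0.30, EXPA4 between -0.52 and 0.67, EXPA9 between -0.71 and 0.23, EXPA10 between -0.30 and 0.13 and EXPA15 between -0.40 and 0.12. EXPA3, EXPA5, EXPA6, EXPA8 and EXPA11 kept their sign in the alternatives run, but not their size: with single libraries left out they lay between -0.47 and -0.30, 0.10 and 0.24, -0.78 and -0.015, -1.01 and -0.35, and -0.87 and -0.22, in that order. EXPA6 was at -0.015 without CLE9 replicate 2, EXPA11 at -0.22 without CLE9 replicate 1 and EXPA5 at 0.10 without water replicate 2. Over all genes, the counts called higher and lower were 2625 and 2259 with array weights, 1 and 2 without a filter, 311 and 44 with the replicate block and 1498 and 526 without both replicate 2 libraries; quantile normalization called 1 higher; leaving out single libraries gave 0 to 195 higher and 0 to 9 lower, both highest without water replicate 2. The cause of these differences was not tested. The block lost no call of the members and added none. With 3 libraries a group, and 2 where replicate 2 is left out, changes of the size seen in most members could not be separated from the spread between libraries.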
